A study of Mus musculus with 6 samples.

Results

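A set of 35 autosomal genes encoding Polycomb proteins, DNA methylation enzymes and other regulators of chromatin was followed in basal keratinocytes of mouse ear epidermis. The members were taken by gene symbol from a deposited table of 49671 genes. All 35 were found, and all 35 passed the filter on low values that left 15362 genes for testing. The groups were castrated males, females and males of the outbred CD1 stock, with 2 bulk RNA-seq libraries per group and no engineered allele named in the labels. Each library came from 100000 living cells that stained for integrin alpha 6 and not for CD34, a gate that leaves out the hair follicle bulge, and each pooled 2 littermates. The age of the mice and the interval after castration are not stated in the sources used here. With 2 pools per group, the p-values rest on how far pools of a group differ, and litter cannot be told apart from sex or treatment.

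Polycomb repressive complex 2 (PRC2) places methyl groups on lysine 27 of histone H3, and Polycomb repressive complex 1 (PRC1) reads that mark and ubiquitinates histone H2A. Together they hold developmental genes silent. DNA methyltransferases add methyl groups to cytosines and TET enzymes oxidise them. Around these systems act histone deacetylases, acetyltransferases, lysine methyltransferases, a lysine 27 demethylase and remodellers that move nucleosomes. In mouse epidermis, Polycomb proteins are known for keeping genes of terminal differentiation, of Merkel cells and of cell cycle arrest silent in basal progenitors.

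The libraries held 8521741 and 8675809 reads from castrated males, 9648154 and 8412487 reads from females, and 9265207 and 8466450 reads from males. Levels are reads relative to library size in CPM after TMM scaling, a trimmed mean adjustment for library composition. Replicates differed by more than counting error: divided by its degrees of freedom, the chi-square between replicates was 4.41 in castrated males, 12.3 in females and 11.7 in males. The summed level of 8 basal keratinocyte markers was 41264 to 48680 CPM over the 6 libraries, a sum that does not show each marker (their differences are given below). Xist and 4 Y-linked genes matched the sex of every label. Those sex-linked genes do not tell castrated males from males. Female replicate 2 stood apart from the other libraries: across the 35 members its median log2 deviation from the mean of all libraries was -0.14, against -0.02 to 0.08 in the other 5 libraries. Fewer cells of a type and less RNA per cell cannot be told apart in bulk samples.

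Promoter sequences of the members the results turn on are given first. Windows of 300 bases, running from 250 bases before the annotated start to 50 bases after it, came from RefSeq on GRCm38.p6 and existed for 31 of the 35 members, with 41 windows in all. No window was at hand for Kdm6b, Hdac1, Hdac3 and Cbx2. Jarid2, the member that differed between females and males, has a pair of windows on the plus strand, at chr13:44730524-44730823 and chr13:44731021-44731320. The paralogues Ezh1 (chr11:101226414-101226713, minus strand) and Ezh2 (chr6:47594981-47595280, minus strand) are shown as the alternative methyltransferases of PRC2. The window of Hells (chr19:38930740-38931039, plus strand) is shown because its level, like that of the proliferation genes, was lowest in males. Capitals mark E2F-type words, the letters bound by the E2F factors of the cell cycle.
Jarid2, upstream window: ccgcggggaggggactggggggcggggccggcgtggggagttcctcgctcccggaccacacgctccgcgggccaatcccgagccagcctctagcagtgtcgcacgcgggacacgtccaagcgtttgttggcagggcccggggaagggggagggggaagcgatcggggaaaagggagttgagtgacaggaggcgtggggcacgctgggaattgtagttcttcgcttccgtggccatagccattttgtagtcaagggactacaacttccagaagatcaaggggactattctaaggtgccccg
Jarid2, downstream window: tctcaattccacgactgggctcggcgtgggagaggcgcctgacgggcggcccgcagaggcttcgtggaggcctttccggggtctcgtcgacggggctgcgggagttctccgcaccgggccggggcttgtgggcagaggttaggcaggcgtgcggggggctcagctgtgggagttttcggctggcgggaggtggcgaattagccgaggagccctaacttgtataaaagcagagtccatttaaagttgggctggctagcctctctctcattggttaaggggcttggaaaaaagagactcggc
Ezh1: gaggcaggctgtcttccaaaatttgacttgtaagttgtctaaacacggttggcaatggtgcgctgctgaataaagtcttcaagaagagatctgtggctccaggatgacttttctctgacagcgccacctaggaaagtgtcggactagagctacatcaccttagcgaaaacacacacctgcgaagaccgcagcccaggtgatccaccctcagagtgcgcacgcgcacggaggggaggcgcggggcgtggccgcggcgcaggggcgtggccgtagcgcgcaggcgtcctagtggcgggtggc
Ezh2: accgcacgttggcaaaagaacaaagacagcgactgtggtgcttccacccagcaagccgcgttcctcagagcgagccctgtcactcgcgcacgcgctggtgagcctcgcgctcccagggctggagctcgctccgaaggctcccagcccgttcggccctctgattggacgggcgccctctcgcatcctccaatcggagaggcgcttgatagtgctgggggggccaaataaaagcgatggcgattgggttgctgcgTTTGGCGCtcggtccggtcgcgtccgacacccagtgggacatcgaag
Hells: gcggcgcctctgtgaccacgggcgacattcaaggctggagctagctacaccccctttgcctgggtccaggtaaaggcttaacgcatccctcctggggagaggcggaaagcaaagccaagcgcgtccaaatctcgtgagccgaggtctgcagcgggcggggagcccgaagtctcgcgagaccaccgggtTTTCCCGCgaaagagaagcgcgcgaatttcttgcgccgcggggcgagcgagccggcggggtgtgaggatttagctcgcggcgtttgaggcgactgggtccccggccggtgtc

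The words searched on both strands were TTTCCCGC, TTTGGCGC, TTTCGCGC and TTTGCCGC. They stood in 4 of the 41 member windows, those of Arid1a, Ezh2, Hells and Suz12, against 744 of 32851 windows of the same length (2.26%). In Hells the word TTTCCCGC began 62 bases before the start, and in Ezh2 the word TTTGGCGC began at base 4 with the start counted as base 1. The consensus palindrome of the androgen response element was in 0 member windows and in 3 of all windows (0.00913%). The consensus palindrome of the estrogen response element was in 0 member windows and in 23 of all windows (0.07%). The member windows were rich in CG dinucleotides, with a median of 30 per window and a range of 3 to 57, against a median of 7 over all windows. Each E2F-type word holds a CG, so the share over all windows is not a like baseline for the member windows. The windows shown hold 24 and 23 CG in Jarid2, 23 in Ezh1, 31 in Ezh2 and 34 in Hells. A match of letters describes a window and does not show a bound site.

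Levels were compared between genes per kilobase of exon, from the union of annotated exons. By this measure the deacetylases Hdac3 and Hdac1 were highest, with 91.7 ± 4.72 and 64.4 ± 7.58 CPM per kb (mean ± SD over 6 libraries). The remodellers Chd4 and Smarca4 followed at 31.2 ± 1.24 and 29.6 ± 2.29 CPM per kb, means that differed by less than the SD of Smarca4. Jarid2, Ezh1, Eed, Rnf2, Ehmt1, Crebbp, Ehmt2 and Setdb1 had means between 15.4 and 25.0 CPM per kb. Arid1a, Hells, Tet3, Kdm6b, Cbx2, Tet2, Setd2, Hdac2, Suz12, Kmt2c and Ezh2 lay between 5.08 and 10.00 CPM per kb. Ring1, Kmt2d, Satb1, Dnmt3a, Ep300, Kmt2a, Bmi1, Cbx8, Cbx7 and Cbx6 lay between 1.03 and 4.36 CPM per kb, and the lowest were Dnmt3b at 0.940 ± 0.178 and Tet1 at 0.0910 ± 0.0474 CPM per kb. Tet1 rested on 20 and 8 reads in castrated males, 8 and 5 reads in females and 19 and 10 reads in males.

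**Figure D1:**
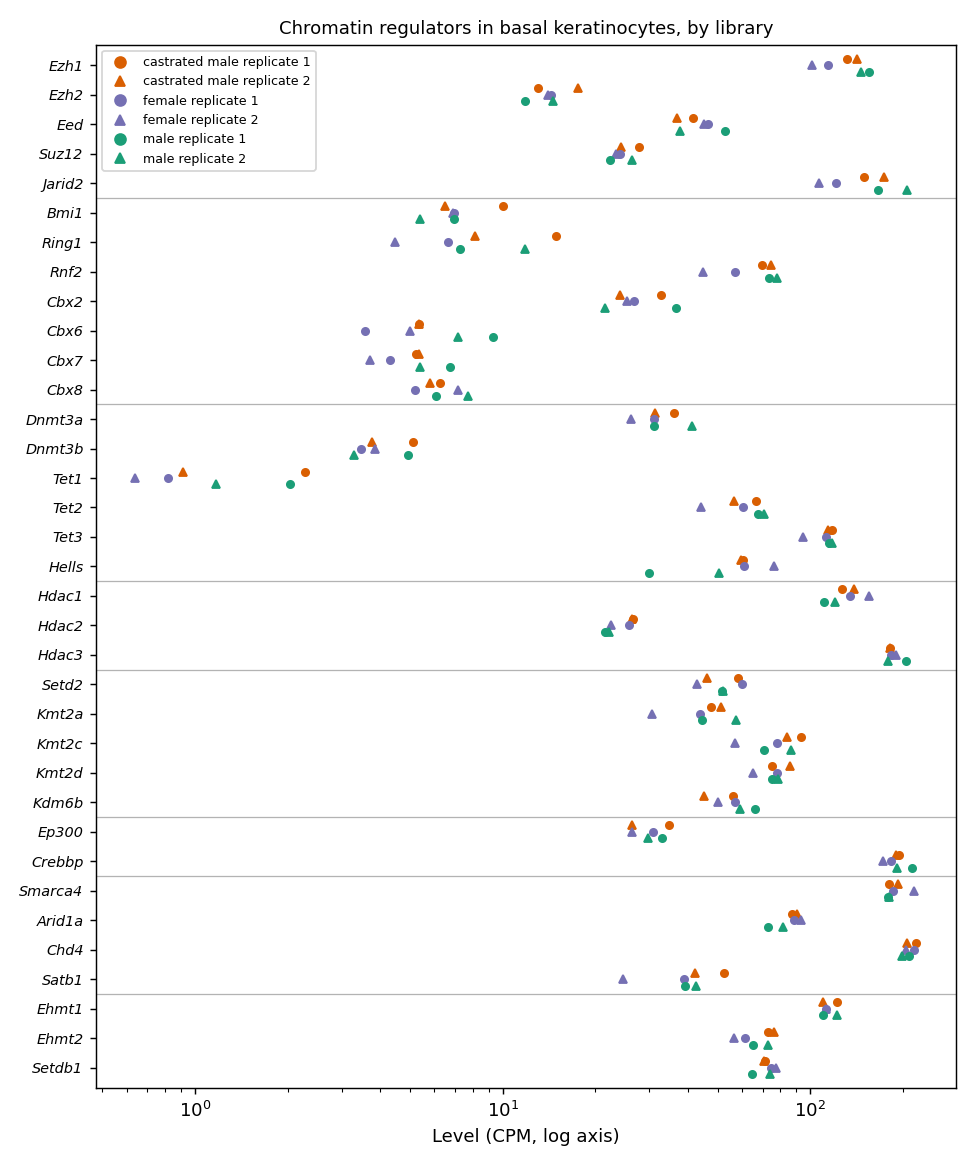
Level of each of the 35 members in CPM (log axis) in each of the 6 libraries, with members grouped by role from PRC2 at the top to the H3K9 methyltransferases at the bottom. Colours stand for the group and shapes for the replicate. Jarid2, Ezh1 and Rnf2 show both female libraries left of both castrated male and both male libraries, and Hells shows both male libraries left of the other 4.

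Within families of related genes, 1 member was usually the more abundant per kilobase in every library. Ezh1, the PRC2 methyltransferase typical of non-dividing cells, exceeded Ezh2, the methyltransferase typical of dividing cells, 4.34 ± 1.00-fold (mean ± SD over 6 libraries). Rnf2, also called Ring1b, exceeded the other H2A ubiquitin ligase Ring1 4.98 ± 1.31-fold. The acetyltransferase Crebbp exceeded Ep300 5.65 ± 0.489-fold, and the de novo DNA methyltransferase Dnmt3a exceeded Dnmt3b 3.63 ± 0.999-fold. Among the TET enzymes, Tet3 exceeded Tet2 1.46 ± 0.151-fold and exceeded Tet1 127 ± 50.6-fold, with few reads of Tet1 behind the ratio. Hdac3 exceeded Hdac1 1.44 ± 0.219-fold and Hdac2 16.2 ± 2.19-fold. The ratio of the H3K9 methyltransferases Ehmt1 and Ehmt2, partners in 1 enzyme complex, was 1.18 ± 0.125 and came below 1 in castrated male replicate 2, at 0.992. Of the chromobox readers of PRC1, Cbx2 was the most abundant, 4.96 ± 0.996-fold above Cbx7.

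**Figure D2:**
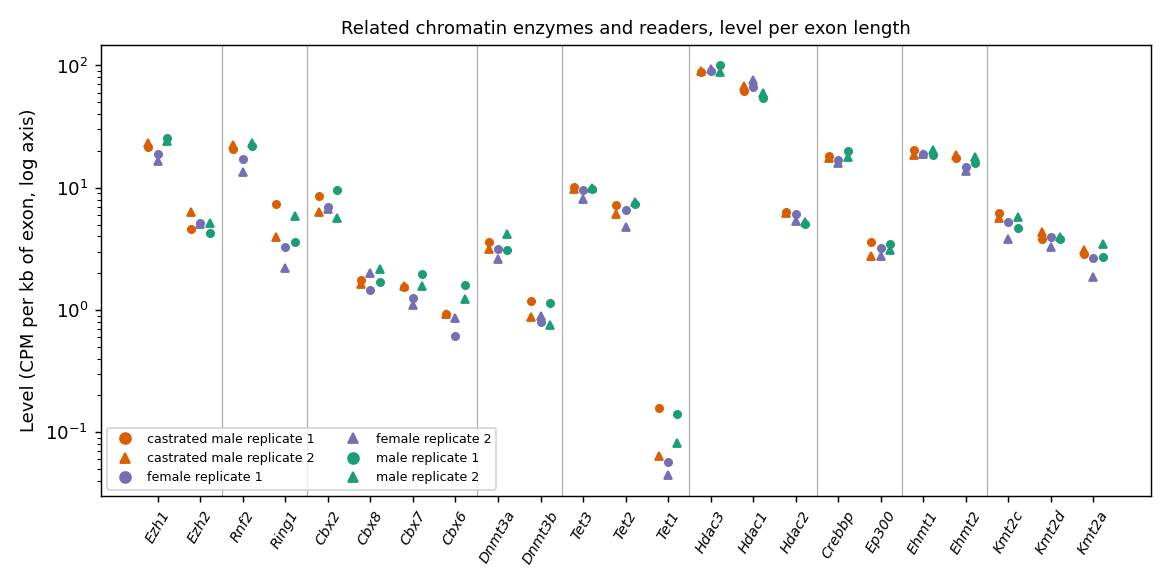
Level of related chromatin genes in CPM per kb of exon (log axis), each family between grey lines, with 1 point per library. Ezh1 lies above Ezh2, Rnf2 above Ring1, Crebbp above Ep300 and Tet3 above Tet1 in all 6 libraries, and Ehmt1 and Ehmt2 overlap.

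Castrated males were compared with males to see which members differ when the testes are absent. No member passed the test: 0 of 35 had an adjusted p below 0.05 in limma, against 6 of 15362 genes (0.0391%, with 0.013% higher and 0.026% lower), and 1 member, Hells, had an unadjusted p below 0.05, against 5.9% of all genes. The median log2 fold change of the members was 0.00, as it was over all genes tested, and 18 members were above 0 and 17 below. Hells, Hdac1, Hdac2 and Arid1a were higher in both castrated male libraries than in both male libraries, which 17.6% of all genes were. Ezh1, Cbx6, Cbx7, Tet2 and Kdm6b were lower in both, which 17.8% of all genes were. For 31 of the 35 members the 95% confidence interval lay within a 2-fold change in either direction, so larger differences between these pools fell outside it for those members.

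Females were compared with males to see which members differ by sex. Jarid2, a PRC2 cofactor that helps bring the complex to its targets, was the 1 member that fell in females (1 of 35, or 2.86%), against 6.11% of all genes called and 2.44% called lower. No member rose, against 3.67% of all genes called higher. Without passing the test, 25 of 35 members had a negative fold change, 6 of the 35 signs changed with the length trend removed, the median was -0.13 on the log2 scale against -0.01 over all genes, and 14 members were lower in both female libraries than in both male libraries, which 27.5% of all genes were. Another 6 were higher in both female libraries, which 26.3% of all genes were, so that 20 did not overlap, against 53.8% of all genes. An unadjusted p below 0.05 was reached by 8 members, against 24.9% of all genes, and the interval lay within a 2-fold change for 29 members. Without female replicate 2 the median was -0.06 and 0 members were called, with 57 genes called in all.

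Castrated males were compared with females as the groups that differ in sex with the testes absent from both. No member passed the test in limma (0 of 35), against 264 of 15362 genes (1.72%, with 0.592% higher and 1.13% lower), and 6 members had an unadjusted p below 0.05, against 21.7% of all genes. The median log2 fold change was 0.13, against 0.02 over all genes. In castrated males 16 members lay above both female libraries and 4 below, which 29.8% and 27.7% of all genes did. The interval lay within a 2-fold change for 32 members. This comparison shares its libraries with the other comparisons, so their directions are not independent.

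**Figure D3:**
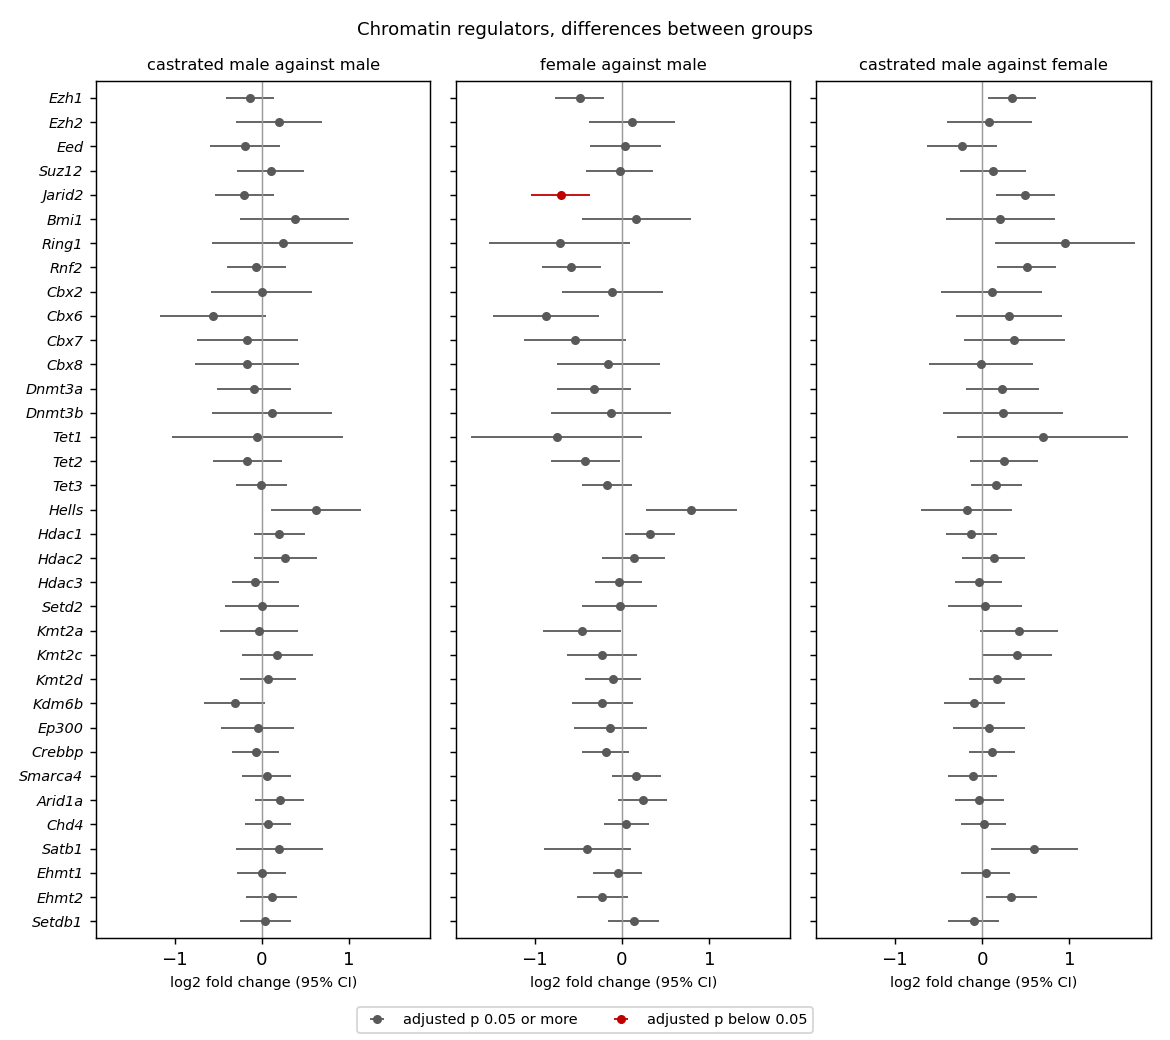
Log2 fold change of each member with its 95% confidence interval in the 3 comparisons, from limma on log2(CPM + 0.5). The interval of Jarid2 in females against males, drawn in red, is the 1 with an adjusted p below 0.05, and the intervals of Ring1, Cbx6 and Tet1, which have few reads, are wide.

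In PRC2, Jarid2 and the methyltransferase Ezh1 had their lowest levels in females, and the intervals of the other 3 subunits in females against males included 0. Jarid2 (chr13:44729474-44921643, GRCm38) had 149 and 173 CPM in castrated males, 121 and 107 CPM in females and 166 and 207 CPM in males. Both female libraries lay below the other 4, and the castrated male and male libraries overlapped. Jarid2 fell in females relative to males by 0.70 on the log2 scale (-0.70 ± 0.15, SE; 95% CI -1.04 to -0.36; limma adjusted p = 0.0324), a level 0.615 times that of males. The difference was -0.20 ± 0.15 in castrated males against males (limma adjusted p = 0.981) and 0.50 ± 0.15 in castrated males against females (limma adjusted p = 0.114). The call on Jarid2 did not hold without female replicate 2 (-0.61 ± 0.17, limma adjusted p = 0.219), without male replicate 2 (-0.54 ± 0.17, limma adjusted p = 0.114), or without castrated male replicate 1 or 2 (limma adjusted p = 0.0719 and 0.0782), and it held without female replicate 1 or male replicate 1.

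Ezh1 (chr11:101191115-101226463) had 132 and 141 CPM in castrated males, 114 and 101 CPM in females and 155 and 146 CPM in males. The 3 groups did not overlap, with females lowest and males highest. In females against males the difference was -0.49 ± 0.12 (95% CI -0.76 to -0.21; limma adjusted p = 0.0516), which did not pass the test. For Ezh1 the limma adjusted p was 0.083 with the length trend removed (-0.39) and 0.128 with the 2 groups compared only. It was 0.0449 with library totals alone and 0.0492 with a minimum of 5 CPM in 2 libraries. Without female replicate 2 the difference was -0.40. Ezh2 (chr6:47530139-47595341) had 13.0 and 17.6 CPM in castrated males, 14.4 and 14.1 CPM in females and 11.9 and 14.5 CPM in males, with all groups overlapping, and its difference in females against males was 0.11 (95% CI -0.38 to 0.60). Eed, which binds the methylated lysine and stimulates the complex, had 41.5 and 36.8 CPM in castrated males, 46.6 and 45.3 CPM in females and 52.6 and 37.8 CPM in males. Suz12, the scaffold subunit, had 27.7 and 24.3 CPM in castrated males, 24.1 and 23.4 CPM in females and 22.3 and 26.2 CPM in males. The male libraries of Eed and Suz12 spanned those of the females, and their intervals in females against males were -0.36 to 0.44 and -0.41 to 0.35.

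In PRC1, 6 of 7 members had negative fold changes in females against males, with none past the test. Of the 7, 4 were lower in both female libraries than in both male libraries, which 27.5% of all genes were. The signs of Cbx2 and Cbx8 changed with 1 library left out. Among the other PRC1 genes, 20 measured, 13 fold changes were negative and 7 positive, with a median of -0.06. Of those 20 genes 3 were lower and 2 higher in both female libraries. Rnf2 (chr1:151458004-151500955), the main ubiquitin ligase of the complex, had 69.8 and 74.8 CPM in castrated males, 57.0 and 44.7 CPM in females and 73.4 and 78.0 CPM in males. Both female libraries lay below the other 4. The difference was -0.58 ± 0.15 in females against males (95% CI -0.92 to -0.24; limma adjusted p = 0.0564) and 0.51 ± 0.15 in castrated males against females (95% CI 0.17 to 0.85; limma adjusted p = 0.109). Without female replicate 1 both passed the test (limma adjusted p = 0.022 and 0.0358), and without female replicate 2 neither did (limma adjusted p = 0.331 and 0.576). Ring1 (chr17:34020792-34024680) had 14.9 and 8.10 CPM in castrated males, 6.64 and 4.47 CPM in females and 7.26 and 11.8 CPM in males. Its castrated male libraries differed widely, and both female libraries lay below the rest. Among uncalled members it had the largest difference in castrated males against females, 0.95 ± 0.35 (95% CI 0.15 to 1.76; limma adjusted p = 0.173), with -0.72 ± 0.35 in females against males (limma adjusted p = 0.249). The value in castrated males against females was 0.53 without castrated male replicate 1 and 1.38 without castrated male replicate 2. In females against males it was -0.38 without male replicate 2, -0.45 without female replicate 2 and -1.05 without male replicate 1.

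The chromobox proteins read the PRC2 mark and bring PRC1 to it. Cbx6 (chr15:79823896-79834688) had 5.36 and 5.36 CPM in castrated males, 3.57 and 4.99 CPM in females and 9.29 and 7.15 CPM in males. Both male libraries lay above the other 4, and the female libraries were lowest. It had the largest difference of any uncalled member in females against males, -0.87 ± 0.27 (95% CI -1.48 to -0.26; limma adjusted p = 0.0901), and -0.56 ± 0.27 in castrated males against males (95% CI -1.17 to 0.05; limma adjusted p = 0.871). Cbx7 had 5.24 and 5.36 CPM in castrated males, 4.29 and 3.71 CPM in females and 6.73 and 5.39 CPM in males. Cbx7 was lowest in the female libraries, with an interval of -1.12 to 0.04 against males. Cbx2 had 32.8 and 24.1 CPM in castrated males, 26.6 and 25.4 CPM in females and 36.6 and 21.6 CPM in males. Cbx8 had 6.27 and 5.82 CPM in castrated males, 5.21 and 7.16 CPM in females and 6.09 and 7.73 CPM in males. The groups of Cbx2 and Cbx8 overlapped in every comparison. Bmi1, the ring finger partner of Rnf2 known for sustaining stem cell self-renewal, had 10.0 and 6.51 CPM in castrated males, 6.94 and 6.90 CPM in females and 6.94 and 5.39 CPM in males. Castrated male replicate 1 was its highest library, and the difference in castrated males against males was 0.38 ± 0.27 (95% CI -0.25 to 1.00; limma adjusted p = 0.981), or 0.08 without that library.

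Of the DNA methylation genes, Hells was the member with the lowest unadjusted p in castrated males against males. Hells (chr19:38930915-38971051) encodes a remodeller that opens nucleosomes to DNA methyltransferases and is abundant in dividing cells. It had 60.5 and 59.6 CPM in castrated males, 60.7 and 75.9 CPM in females and 30.0 and 50.4 CPM in males. Both male libraries lay below the other 4, and the male libraries differed from each other by more than those of either other group. The difference was 0.62 ± 0.23 in castrated males against males (95% CI 0.10 to 1.14; unadjusted p = 0.0245 and adjusted p = 0.778 in limma). It was 0.80 ± 0.23 in females against males (95% CI 0.28 to 1.32; limma adjusted p = 0.0747). Male replicate 1, the lowest library, carried much of both: without it the differences were 0.25 and 0.43, and without male replicate 2 they were 0.99 and 1.17 (limma adjusted p = 0.078 and 0.0164).

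Dnmt3a had 36.007 and 31.3 CPM in castrated males, 31.0 and 26.1 CPM in females and 31.0 and 41.1 CPM in males. Dnmt3b had 5.13 and 3.77 CPM in castrated males, 3.47 and 3.84 CPM in females and 4.91 and 3.28 CPM in males. The female and male libraries of both methyltransferases overlapped, and their intervals in females against males were -0.74 to 0.10 and -0.81 to 0.56. The TET enzymes start the removal of DNA methylation, and none of the 3 passed the test in females against males. All 3 were lower in both female libraries than in both male libraries, which 27.5% of all genes were. With the length trend removed the difference of Tet3 was 0.0038. Tet2 had 66.8 and 56.6 CPM in castrated males, 60.4 and 44.0 CPM in females and 67.4 and 70.9 CPM in males. Tet3 had 118 and 114 CPM in castrated males, 113 and 94.996 CPM in females and 115 and 118 CPM in males. Female replicate 2 was the lowest library of each, and the differences in females against males were -0.42 ± 0.17 for Tet2 (limma adjusted p = 0.179) and -0.17 ± 0.13 for Tet3 (limma adjusted p = 0.444). Without female replicate 2 they were -0.18 for Tet2 and -0.041 for Tet3. Tet1 had 2.28 and 0.913 CPM in castrated males, 0.817 and 0.639 CPM in females and 2.03 and 1.17 CPM in males. Its castrated male libraries differed by more than its group means, and its difference was -0.75 ± 0.43 in females against males (95% CI -1.73 to 0.23; limma adjusted p = 0.321) and 0.69 ± 0.43 in castrated males against females (95% CI -0.28 to 1.67; limma adjusted p = 0.376). Without castrated male replicate 1 the second of these was 0.21. On the log2(CPM + 0.5) scale a fold change of so low a gene is understated.

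The histone deacetylases are class I enzymes that remove acetyl groups from histone tails. Hdac1 had 127 and 139 CPM in castrated males, 135 and 155 CPM in females and 111 and 121 CPM in males. Hdac2 had 26.5 and 26.3 CPM in castrated males, 25.7 and 22.5 CPM in females and 21.6 and 22.1 CPM in males. For both genes the male libraries were the lowest, without passing the test, and the difference of Hdac1 in females against males was 0.32 ± 0.13 (limma adjusted p = 0.167). Hdac3, the deacetylase of the nuclear receptor corepressors, had 181 and 182 CPM in castrated males, 182 and 189 CPM in females and 204 and 179 CPM in males. The male libraries of Hdac3 spanned the rest, and its intervals were narrow, -0.35 to 0.19 in castrated males against males and -0.31 to 0.23 in females against males.

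Among the methyltransferases of lysines 4 and 36 and the demethylase of lysine 27, all 5 had negative fold changes in females against males, 2 of which (Setd2 and Kmt2d) were above 0 with the length trend removed, and none passed the test. Kmt2a, a lysine 4 methyltransferase that counters Polycomb at developmental genes, had 47.4 and 51.3 CPM in castrated males, 43.8 and 30.7 CPM in females and 44.5 and 57.3 CPM in males. Its difference in females against males was -0.46 ± 0.20 (limma adjusted p = 0.196), with female replicate 2 the lowest library and -0.20 without it. Kmt2c, which marks enhancers, had 93.0 and 83.9 CPM in castrated males, 78.2 and 56.9 CPM in females and 70.6 and 86.4 CPM in males. Its relative Kmt2d had 75.1 and 86.0 CPM in castrated males, 78.0 and 65.1 CPM in females and 74.9 and 78.3 CPM in males. Female replicate 2 was again the lowest library of both. Setd2, which methylates lysine 36, had 58.3 and 46.2 CPM in castrated males, 60.1 and 43.0 CPM in females and 51.7 and 51.9 CPM in males, so that its replicates within castrated males and within females differed more than the group means. Kdm6b, which removes the PRC2 mark, had 55.9 and 45.2 CPM in castrated males, 57.0 and 50.1 CPM in females and 66.1 and 59.2 CPM in males. Both male libraries lay above the rest, and the difference in castrated males against males was -0.31 ± 0.15 (95% CI -0.66 to 0.04; limma adjusted p = 0.895). It was -0.17 without castrated male replicate 2 and -0.46 without castrated male replicate 1.

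None of the acetyltransferases, remodellers and organisers passed the test in limma, and Satb1 had the widest differences. Crebbp had 195 and 190.1 CPM in castrated males, 183 and 173 CPM in females and 215 and 191 CPM in males, and Ep300 had 34.6 and 26.3 CPM in castrated males, 30.7 and 26.3 CPM in females and 32.9 and 29.6 CPM in males. Chd4, the ATPase of the NuRD deacetylase complex, was among the steadiest members. Its range between highest and lowest library was 1.11-fold, hardly narrower than the 1.12-fold of Ehmt1. Chd4 had 221 and 206 CPM in castrated males, 218 and 205 CPM in females and 209 and 199 CPM in males. Smarca4, the ATPase of the BAF remodelling complex, had 179.9 and 193 CPM in castrated males, 185 and 217 CPM in females and 178 and 180.1 CPM in males. Arid1a, its DNA-binding subunit, had 87.2 and 90.6 CPM in castrated males, 88.6 and 93.2 CPM in females and 72.9 and 81.3 CPM in males. The male libraries of Arid1a were the lowest, with 0.21 in castrated males against males and 0.24 in females against males (limma adjusted p = 0.941 and 0.27). Satb1 (chr17:51736187-51833290), a genome organiser that folds the epidermal gene loci downstream of p63, had 52.3 and 42.2 CPM in castrated males, 38.8 and 24.5 CPM in females and 39.2 and 42.5 CPM in males. Both female libraries lay below the rest, and the difference in castrated males against females was 0.60 ± 0.22 (95% CI 0.10 to 1.10; limma adjusted p = 0.168). It was 0.27 without female replicate 2 and 0.92 without female replicate 1 (limma adjusted p = 0.0358).

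The H3K9 methyltransferases silence genes and repeats. Ehmt1 had 122 and 109.8 CPM in castrated males, 113 and 112 CPM in females and 109.9 and 122 CPM in males, with intervals of -0.28 to 0.28 in castrated males against males and -0.33 to 0.23 in females against males. Its partner Ehmt2, also called G9a, had 72.6 and 76.3 CPM in castrated males, 61.2 and 56.6 CPM in females and 65.2 and 72.8 CPM in males. Both female libraries of Ehmt2 lay below the rest, without passing the test (0.34 ± 0.13 in castrated males against females, limma adjusted p = 0.182). Setdb1, which silences retroviral repeats, had 71.1 and 70.7 CPM in castrated males, 74.3 and 77.2 CPM in females and 64.5 and 73.8 CPM in males, with the female libraries highest by a small margin (0.13 against males, limma adjusted p = 0.558).

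Other genes of the same complexes were counted in 8 lists of 130 genes, of which 128 were measured. None passed the test in limma in castrated males against males (0 of 128, with 2 at an unadjusted p below 0.05) or in castrated males against females (0 of 128, with 22 at an unadjusted p below 0.05). In females against males 4 of 128 passed (3.12%), 2 higher and 2 lower, against 6.11% of all genes called, 3.67% higher and 2.44% lower. They came from the lists of PRC2 accessory proteins (1 of 7), DNA methylation (2 of 12) and deacetylases with NuRD (1 of 22). Dnmt3l, in the count of higher genes, met the filter on low values only through the female libraries, so nothing is read from its call, and the others were Phf1, Hdac11 and Uhrf1. The lists of PRC1 (20 measured), COMPASS and lysine 27 demethylation (16), acetyltransferases and readers (12), BAF and CHD remodellers (24) and H3K9 with HP1 (15) had none. Phf1, a PRC2 accessory protein that reads methylated lysine 36, fell in females, with 23.1 and 16.9 CPM in castrated males, 16.3 and 8.57 CPM in females and 29.9 and 26.950 CPM in males (-1.23 ± 0.29, limma adjusted p = 0.0448). Hdac11 fell in females, with 38.3 and 41.2 CPM in castrated males, 28.9 and 21.1 CPM in females and 39.9 and 46.2 CPM in males (-0.79 ± 0.18, limma adjusted p = 0.0422). Both female libraries of both genes lay below the other 4, female replicate 2 lowest.

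Uhrf1, which carries the maintenance methyltransferase Dnmt1 to replicating DNA, rose in females, with 63.6 and 73.9 CPM in castrated males, 77.8 and 116 CPM in females and 53.5 and 55.9 CPM in males (0.79 ± 0.19, limma adjusted p = 0.0458). The 3 groups of Uhrf1 did not overlap, with males lowest. Dnmt1 had 159 and 152 CPM in castrated males, 152 and 189.7 CPM in females and 133 and 149 CPM in males, and its difference in females against males was 0.27 ± 0.14 (limma adjusted p = 0.279). Dnmt3l, a cofactor of the de novo methyltransferases without catalytic activity, had 0 reads in every castrated male and male library, and 1.23 and 3.58 CPM (12 and 28 reads) in the female libraries. No test is given for Dnmt3l. A count of 0 allows up to 3 reads, or 0.346 to 0.352 CPM in the castrated male libraries and 0.324 to 0.354 CPM in the male libraries, a limit that covers counting error only. Kdm6a, the X-linked relative of Kdm6b that escapes X inactivation, had 87.2 and 93.6 CPM in castrated males, 119 and 106 CPM in females and 79.3 and 93.3 CPM in males (0.38 ± 0.13 in females against males, limma adjusted p = 0.124).

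Proliferation genes passed the test in females against males only. Of 15 such genes 7 rose there (46.7%, median log2 fold change 0.86), against 3.67% of all genes called higher. In castrated males against males 0 passed in limma, and 4 had an unadjusted p below 0.05, against 5.9% of all genes. There 10 of 15 lay above both male libraries, which 17.6% of all genes did, and the median was 0.32. In castrated males against females 0 passed. There 13 of 15 lay below both female libraries and 1 above, which 27.7% and 29.8% of all genes did. Their summed level was 1027 and 1094 CPM in castrated males, 1274 and 1752 CPM in females, and 776 and 968 CPM in males. Hells, Uhrf1 and that sum had their lowest values in the male libraries, and female replicate 2 was the highest library of all 3. Ezh2, whose groups overlapped, did not follow this order. The part of proliferation in the levels of Hells and Uhrf1 was not tested.

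**Figure D4:**
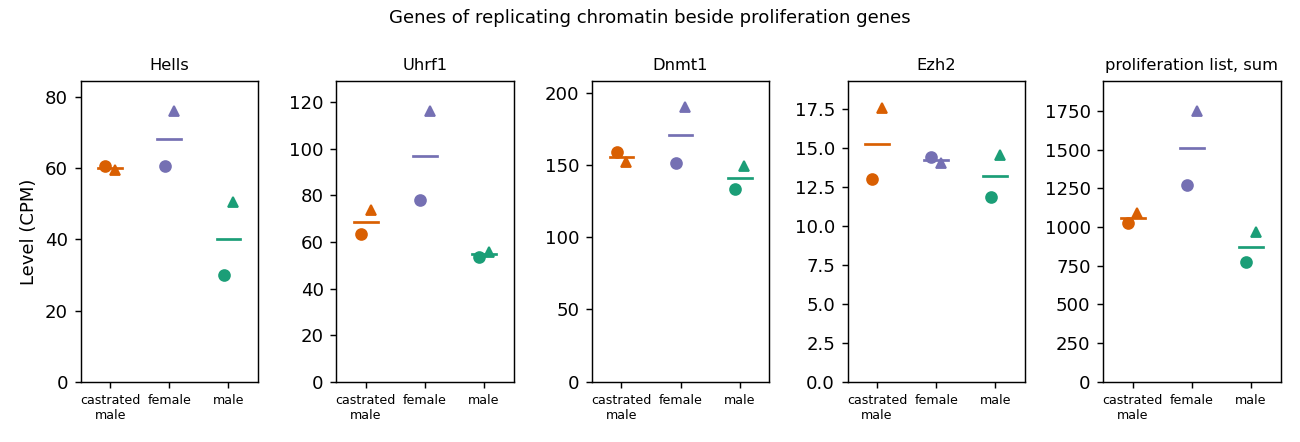
Level in CPM of Hells, Uhrf1, Dnmt1 and Ezh2 and the summed level of 15 proliferation genes, with 1 point per library and a line at each group mean (circles are replicate 1, triangles replicate 2). Hells, Uhrf1 and the proliferation sum have both male libraries below the other 4, while the groups of Ezh2 overlap.

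Of 12 genes that Polycomb is known to silence in epidermis, 7 were below the filter on low values. The other 5, Cdkn2b, Cdkn1a, Krt8, Lhx2 and Sox9, were measured, and none passed the test in limma in any of the 3 comparisons (1 at an unadjusted p below 0.05 in castrated males against males, 0 in each other comparison). Cdkn2a, the cell cycle inhibitor best known as a Polycomb target, had 0 and 0 reads in castrated males, 1 and 0 reads in females and 1 and 0 reads in males. The Merkel cell factors Sox2 and Isl1 had 0 to 1 read in each library, and Atoh1 had 0.114 and 0 CPM in castrated males, 0.204 and 0 CPM in females and 0.534 and 0.469 CPM in males. Cdkn1a, which basal cells also express without Polycomb loss, had 86.0 and 101 CPM in castrated males, 101 and 103 CPM in females and 115 and 119 CPM in males.

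Some cell type markers and the trend with transcript length also moved with the groups. Of the 8 basal markers none passed the test in limma in any comparison. In females against males 5 had negative and 3 positive fold changes, with a median of -0.25 against -0.01 over all genes. There 4 were lower and 1 higher in both female libraries, and 4 had an unadjusted p below 0.05, against 24.9% of all genes. Their median was 0.24 in castrated males against females and -0.0016 in castrated males against males. The summed level of 11 leukocyte markers, 9 of them measured, was 406 and 472 CPM in castrated males, 1079 and 2345 CPM in females, and 383 and 429 CPM in males. Of those markers Cd74, H2-Aa and H2-Ab1 rose in females against males, and the same 3 were lower in castrated males than in females (limma adjusted p = 0.0184 to 0.0288). No other leukocyte marker passed the test in limma in either comparison. In females against males 6 of the 9 measured had positive fold changes and 3 had negative. In castrated males against females 3 were positive and 6 negative. Of 8 spinous and granular markers Krt1, Krtdap and Flg rose and Dsg1a fell in females against males, with a summed level of 2166 and 2352 CPM in castrated males, 1892 and 2108 CPM in females, and 1971 and 1681 CPM in males. In castrated males against males all 8 of those markers had positive fold changes, with a median of 0.73 on the log2 scale against 0.0036 over all genes, 5 at an unadjusted p below 0.05, 5 above both male libraries and 0 past the test. In castrated males against females 1 of the 8, Dsg1a, was higher (limma adjusted p = 0.0474). The summed level of 7 hair follicle markers was 571 and 640.4 CPM in castrated males, 931 and 1500 CPM in females, and 645 and 795 CPM in males, most of it from Krt17. Of these Krt79 was lower in castrated males than in females (limma adjusted p = 0.0496), and none passed the test in limma in females against males (2 at an unadjusted p below 0.05) or in castrated males against males (1 at an unadjusted p below 0.05). The gate's own marker Cd34 had 23 and 24 reads in castrated males, 23 and 18 reads in females and 14 and 26 reads in males. Of 6 melanocyte markers, 5 of them measured, Mitf fell in females against males (limma adjusted p = 0.0267), with a summed level of 48.7 and 81.8 CPM in castrated males, 33.3 and 41.9 CPM in females, and 47.7 and 56.6 CPM in males. The members have long transcripts, with a median exon length of 5.97 kb (2.03 to 19.83 kb) against 2.87 kb over all tested genes with a length. Across 15311 genes, which share the same libraries, the log2 fold change in females against males had a Spearman rho of -0.15 with exon length, and the deviations of female replicate 2 had a rho of -0.18. The 12 members over 8 kb had a median of -0.21 in females against males and the other 23 had -0.05, while all 835 tested genes over 8 kb had -0.15. With the length trend removed in each library, Jarid2 was still called (-0.61 ± 0.15, limma adjusted p = 0.0481), and the member median was -0.02. The part of basal, leukocyte, spinous, hair follicle or melanocyte RNA in the members' differences was not tested.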

How the data were processed

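RNA-seq of 6 libraries was used, 2 each from castrated males, females and males. The authors' tools, per the submitters' processing notes, included the aligner STAR 2.7.5a and the counter HTSeq 0.11.1, beside FastQC and Picard, and the notes name GRCm38 and mm10 as builds. Annotation, strandedness and scaling were not stated there. The deposited values are a score per gene, in that reads had been scaled to about the same total in every library and rounded. In each library 100.0% of values lay within 0.5 of a whole multiple of 1 step (2.07 to 2.38 deposited units per read), against 42.1% to 48.2% of all whole numbers, which gave whole reads and the totals in the text.

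From these reads CPM were computed with TMM factors of 0.930 to 1.03. Genes with at least 1.16 CPM in 2 libraries and 15 reads in all were tested with limma 3.58.1 under R 4.3.3, on log2(CPM + 0.5). The fit took all 6 libraries, a mean for each group and an intensity trend, leaving 3 residual and 5.80 prior degrees of freedom. P-values are two-sided and adjusted by Benjamini-Hochberg over the 15362 genes of a comparison, with calls at an adjusted p below 0.05. Fold changes are log2 with SE, on the log2(CPM + 0.5) scale. 1 read was worth 0.104 to 0.119 CPM. Exon lengths and gene coordinates are from GENCODE M21 on GRCm38 and promoter windows from RefSeq on GRCm38.p6. The recovery of whole reads was tested on simulated reads, scaled to the same total and rounded.

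The members, the partner and marker lists and the alternatives were chosen with earlier results of these data known. All 35 members are named, with full statistics for called members and for the 3 uncalled members with the largest difference in each comparison, and of the partner lists up to 4 called genes each. Dnmt1, Kdm6a and the other statistics given were chosen after their values were seen. Of the partner symbols, 3 (Epop, Nsd2 and Nsd3) were matched by gene ID. The second male library is numbered 2 in its title and otherwise in its name, and the title was used.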

Additional observations from a re-analysis of the deposited data

How the results depend on the processing

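The call on Jarid2 in females against males held with median-of-ratios factors, library totals alone, pseudocounts of 0.1 and 2, a minimum of 5 CPM in 2 libraries, the length trend removed and the replicate block, and was lost without a filter and with the 2 groups compared only (limma adjusted p = 0.0989 and 0.0757). For that comparison 2 members, Ezh1 and Jarid2, were called with library totals alone (966 genes in all) and with a minimum of 5 CPM (887 genes, 33 members measured), 0 members without a filter (88 genes in all) and 0 with the 2 groups only (262 genes). With 1 library left out, 0 to 4 members and 57 to 1735 genes were called there, and the member median ran from -0.23 to -0.059; with the length trend removed it was -0.023. In castrated males against males 0 members were called under every alternative run, with 11 genes at a pseudocount of 2, 2 genes without a filter and 1 to 75 genes with 1 library left out, and a member median from -0.072 to 0.034. In castrated males against females 0 members were called under every alternative run apart from 2, Rnf2 and Satb1, without female replicate 1 (0 to 2 over the libraries left out), with 33 genes called without a filter, 534 with the 2 groups only and 29 to 1274 with 1 library left out. The member median there was 0.20 with library totals alone, 0.063 with the length trend removed and 0.060 to 0.23 with 1 library left out. Library totals alone moved the median of all genes to -0.07 in females against males and to 0.08 in castrated males against females. The causes were not tested.

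The numbers of the titles give 2 values per group and nothing ties equal numbers to a shared litter or day, so the samples were not paired. Correlations of same-numbered deviations were 0.19 for castrated males with females, -0.01 for castrated males with males and -0.15 for females with males. With the replicate block 787 genes and 1 member were called in females against males, 5 genes in castrated males against males and 158 genes in castrated males against females. The edgeR and DESeq2 tests listed as alternatives were not run on the recovered reads, so the calls of a count model are not known here. Leaving out 1 library moved the difference by over 1.5 times, or changed its sign, for 33 of 35 members in castrated males against males, 27 of 35 in females against males and 30 of 35 in castrated males against females. The rule is a ratio, so small changes move a difference near 0, such as 1.5e-05 for Cbx2 and -0.0023 for Ehmt1 in castrated males against males. The same count over all genes is not given here. With 2 pools per group and 3 residual degrees of freedom, the intervals of genes of few reads such as Tet1, Dnmt3b and Cbx6 were wide, so the size of their differences is poorly known.

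Members that changed sign were uncalled in every case. With median-of-ratios factors, the sign of the difference in castrated males against males changed for Cbx2 (-0.0079) and Setd2 (-0.0041). With library totals alone, the sign of the difference in castrated males against males changed for Tet3 (0.0083) and Ehmt1 (0.013). With a pseudocount of 2, the sign of the difference in castrated males against males changed for Cbx2 (-0.0015). With the length trend removed, the sign of the difference in castrated males against males changed for Cbx2 (-0.0066) and Setd2 (-0.0024). With library totals alone, the sign of the difference in females against males changed for Eed (-0.015) and Chd4 (-0.0045). With the length trend removed, the sign of the difference in females against males changed for Suz12 (0.019), Tet3 (0.0038), Setd2 (0.10), Kmt2d (0.15), Ep300 (0.014) and Ehmt1 (0.045). With library totals alone, the sign of the difference in castrated males against females changed for Cbx8 (0.050), Hdac3 (0.034) and Arid1a (0.038). With the length trend removed, the sign of the difference in castrated males against females changed for Tet3 (-0.022), Setd2 (-0.10), Kmt2d (-0.10), Ep300 (-0.071), Crebbp (-0.061), Chd4 (-0.090) and Ehmt1 (-0.050). With 1 library left out, differences that changed sign in castrated males against males ran from -0.43 to 0.044 for Eed, -0.016 to 0.21 for Suz12, -0.19 to 0.65 for Ring1, -0.17 to 0.021 for Hdac3, -0.25 to 0.14 for Ep300, -0.16 to 0.0091 for Crebbp, -0.058 to 0.14 for Setdb1, -0.38 to 0.38 for Cbx2, -0.29 to 0.11 for Dnmt3a, -0.14 to 0.37 for Dnmt3b, -0.031 to 0.011 for Tet3, -0.22 to 0.14 for Kmt2a, -0.080 to 0.075 for Ehmt1, -0.16 to 0.16 for Setd2, -0.024 to 0.41 for Ezh2, -0.54 to 0.43 for Tet1, -0.037 to 0.17 for Kmt2d and -0.0039 to 0.11 for Smarca4. With 1 library left out, differences that changed sign in females against males ran from -0.029 to 0.25 for Ezh2, -0.48 to 0.27 for Cbx2, -0.38 to 0.13 for Dnmt3b, -0.14 to 0.057 for Hdac3, -0.20 to 0.28 for Eed, -0.14 to 0.087 for Suz12, -0.0036 to 0.33 for Bmi1, -0.36 to 0.057 for Cbx8, -0.12 to 0.031 for Ehmt1, -0.27 to 0.22 for Setd2, -0.45 to 0.0096 for Kmt2c and -0.23 to 0.034 for Kmt2d. With 1 library left out, differences that changed sign in castrated males against females ran from -0.24 to 0.074 for Kdm6b, -0.23 to 0.19 for Cbx8, -0.22 to 0.27 for Setd2, -0.11 to 0.29 for Ep300, -0.035 to 0.076 for Chd4, -0.083 to 0.51 for Bmi1, -0.11 to 0.34 for Cbx2, -0.032 to 0.13 for Ehmt1 and -0.12 to 0.30 for Ezh2.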
